A study of Mus musculus with 10 samples.

Results

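The interferon response and antigen presentation genes followed here are 48 mouse genes taken from a list of names by function. No measured value enters the rule, although the list was made with earlier results of these data known. They hold 6 RNA sensors and adaptors, 9 interferon receptors and transcription factors, 23 interferon-induced genes and 10 genes of MHC class I presentation. All 48 were found among the 53801 genes of the count table, and 42 of them had enough counts to be tested, out of 14336 genes tested in all. The list was drawn up as a check on a response to hairpin RNA.

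RNA was sequenced from AtT20/D16v-F2 cells, a mouse corticotroph line from a pituitary tumour, in 10 libraries. The 5 control libraries came from a stable line in which a lentivirus expressed a non-targeting shRNA. The 5 knockdown libraries came from a stable line in which it expressed *Creb3l1*-shRNA1, a hairpin against the transcription factor gene *Creb3l1*. Both lines therefore carried a lentivirus and a hairpin, and no cells without a hairpin were compared. Each hairpin was represented by 1 stable line, so that a difference between the lines and an effect of the knockdown cannot be told apart. The study describes its replicates as biological, and the p-values measure the spread between the libraries of these lines. No treatment or time point was given for either line.

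Cells detect double-stranded RNA with receptors such as RIG-I and MDA5 in the cytoplasm and TLR3 in endosomes, which signal through adaptors to IRF3 and IRF7 and so to the type I interferon genes. Secreted interferon binds the receptors of the same and neighbouring cells, and a complex that contains STAT2 and IRF9 then switches on interferon-induced genes through the interferon-stimulated response element (ISRE) of their promoters. MHC class I molecules carry peptides made by the proteasome to the cell surface, after transport into the endoplasmic reticulum by TAP and loading with the help of tapasin. Most of these genes are expressed at a low level without interferon, and pituitary endocrine cells express class I as other nucleated cells do.

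The hairpin targets are shown because they are the RNA that both lines were made to carry. Each is given 5′ to 3′ as in the sense strand of the target, with the site that matches bases 2 to 8 of the guide in capitals, the guide being taken as the reverse complement of the target.
*Creb3l1*-shRNA1: gagtcggatttccTCAACAAt
Non-targeting shRNA: atcatgttaggcgTACGGACt
The longest transcript of *Creb3l1* holds all 21 bases of the shRNA1 target. Among the members, the longest run of bases shared with that target was 10, in *Eif2ak2* and *Oas1a*. The seed site TCAACAA was found in the longest transcript of 12 of the 42 tested members (28.6%), against 3304 of 14315 tested genes (23.1%). TACGGAC, that of the non-targeting hairpin, was in 2 members (4.8%), *Ifngr2* and *Rsad2*, against 573 genes (4.0%).

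Promoter stretches are shown for *Isg15*, *Stat2*, *Bst2* and *B2m*, the members with ISRE letters that differed between the lines by the test described below. The stretches are from RefSeq on GRCm38.p6, in windows from 250 bases before to 50 after a start of the gene. A gene can have several such windows, and 38 of the 48 members had a window. The capitals mark GAAANNGAAA on either strand, with 25 bases beside it on each side, and each stretch is given in the direction of the gene.
*Isg15*, chr4:156200850-156200921, minus strand: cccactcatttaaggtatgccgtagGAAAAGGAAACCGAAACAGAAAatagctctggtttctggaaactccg
*Stat2*, chr10:128270251-128270310, plus strand: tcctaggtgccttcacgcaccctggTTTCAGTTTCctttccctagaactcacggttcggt
*Bst2*, chr8:71537562-71537627, minus strand: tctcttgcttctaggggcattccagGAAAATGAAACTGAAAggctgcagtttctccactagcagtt
*B2m*, chr2:122147523-122147582, plus strand: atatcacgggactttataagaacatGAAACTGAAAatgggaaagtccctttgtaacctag
The *Isg15* stretch holds 3 overlapping matches between 78 and 57 bases before the start, and the match of *Stat2* lies 222 to 213 bases before it. The matches of *Bst2* (130 to 115 bases before) and *B2m* (139 to 130 before) lie between those. As described below, *Isg15* and *Stat2* were higher in the knockdown line, and *Bst2* and *B2m* were lower. A match of letters is a description of the promoter and not a measured site.

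Each control library held 17420698 to 21497750 counts and each knockdown library 18866520 to 22205107. The targeted gene *Creb3l1* had normalised counts of 3805, 3864, 3695, 3551 and 3531 in the control line and 1093, 1133, 1014, 1159 and 1051 in the knockdown line, and every library fitted its label. Normalised counts are counts scaled to the mean effective library size, and values are listed for replicates 1 to 5. All 6 corticotroph markers were present, and 5 were called, *Pomc* (log2 fold change −0.51), *Pcsk1* (−0.46) and *Tbx19* (−0.27) lower and *Neurod1* (0.62) and *Pitx1* (0.36) higher. Their summed RPKM (read counts scaled for exon length and library size), which is mostly that of *Pomc*, was 5039 to 5459 in the control and 3568 to 3833 in the knockdown libraries. The leukocyte markers *Ptprc*, *Cd3e* and *Adgre1* were at 0 in all 10 libraries, while *Lyz2* had 1 to 7 raw counts in both lines. *Cd68* was at 1.56 RPKM in the control and 1.18 in the knockdown line and was not called. The summed RPKM of the 8 leukocyte markers, mostly that of *Cd68*, was 1.498 to 2.21 in the control and 1.15 to 1.67 in the knockdown libraries. Of 8 markers of other anterior pituitary cells, only *Nr5a1* was tested. It was at 0.915 RPKM in the control and 0.732 in the knockdown line and was not called. Control replicate 3 stood apart, with 4.13% of its counts on the non-coding gene *Gm42418*, against 0.106% to 0.191% in the other libraries. Without it, 20 of the 21 members called below were still called, all but *Adar*.

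In the knockdown line, 21 of the 42 tested members (50%) were called, which here means an adjusted p under 0.01 by the quasi-likelihood test of edgeR. Of all 14336 genes tested, 40.7% were called, so the share among the members was near that background. The call was higher in the knockdown line for 13 members and lower for 8, where 20.6% of all genes were called higher and 20.1% lower. Of the called members 61.9% were thus higher, against 50.7% of all called genes. The median log2 fold change (knockdown against control) of the 42 tested members was 0.09, beside −0.002 over all genes tested. The median of the absolute values was 0.25 beside 0.15. Most called differences were small, and 5 members (11.9%) were called with a change of at least 1.5-fold, 4 of them higher (*Usp18*, *Isg15*, *Tap1* and *Parp14*) and 1 lower (*Tapbp*), against 7.73% of all genes. The libraries of the lines did not overlap for 17 members (40.5%), against 36% of all genes. In bulk RNA, a smaller share of cells with a transcript and less of it in each cell cannot be told apart.

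**Figure D1:**
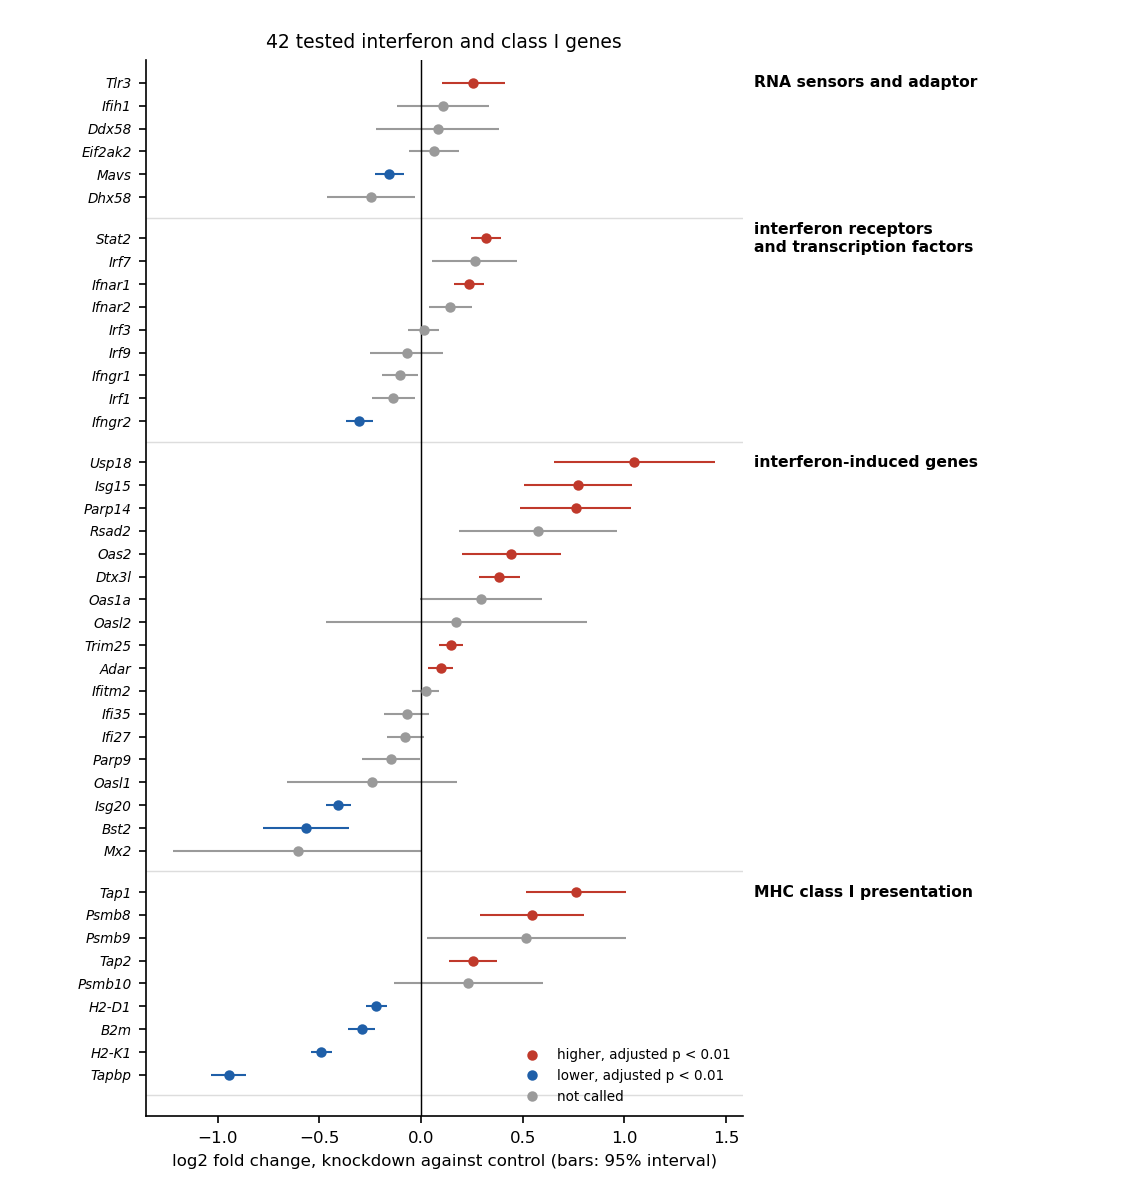
Log2 fold change of the 42 tested members, knockdown against control, with 95% intervals as bars, grouped by role and ordered within each group (x axis, log2 scale). Red points are called higher (13 members), blue points called lower (8) and grey points not called (21), and the class I group holds both *Tap1* at 0.76 and *Tapbp* at −0.95.

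The number of counts behind a member set how small a difference could be called. Of the 16 members in the lowest quartile of genes by mean count (means of 7.92 to 120), 6 were called, where the median standard error over all genes of that quartile was 0.205 on the log2 scale. In the highest quartile, 6 of 7 members were called, at a median standard error of 0.031. Over all genes the share called rose from 21.2% to 56% between these quartiles. A member with few counts that was not called is therefore given with its interval.

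The level of the members in the control line spanned several orders of magnitude on the RPKM scale, which allows for length. *H2-K1* (153 ± 3.85 RPKM, SD, n = 5), *Ifitm2* (153 ± 6.66), *H2-D1* (116 ± 2.43) and *B2m* (111 ± 3.67) were above 100. A further 10 members were at 10 to 100 RPKM, led by *Isg20* at 64.6 ± 1.51, and 16 at 1 to 10. The remaining members were the classical antiviral genes for the most part, with 13 at 0.1 to 1 RPKM and 5 under 0.1 (*Ifit1*, *Ifit2*, *Ifit3*, *Oasl2* and *Nlrc5*). The summed RPKM of the 48 members was 822 to 848 in the control libraries and 727 to 753 in the knockdown libraries, a sum made up largely of the class I genes and *Ifitm2*.

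**Figure D2:**
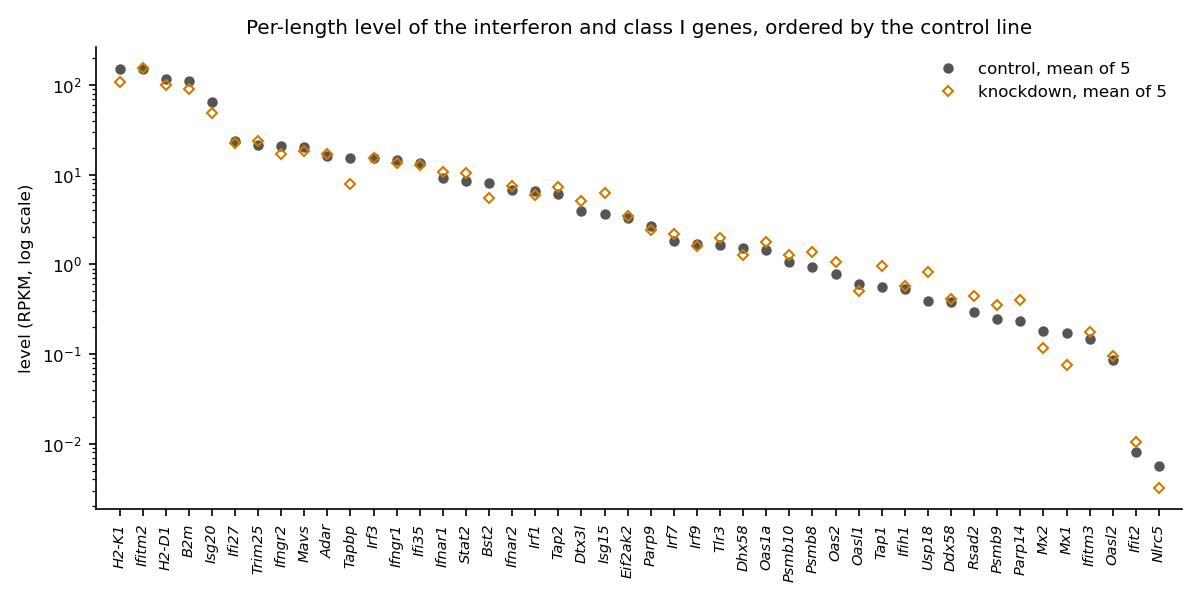
Mean level of each member in the control line (filled circles) and the knockdown line (open diamonds), 5 libraries each, in RPKM on a log axis, ordered by the control line. *H2-K1* leads at 153 RPKM, *Usp18*, *Parp14* and *Tap1* are below 1 in both lines, and *Ifit1* and *Ifit3*, with a mean of 0 in at least 1 line, are not drawn.

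Among the 6 RNA sensors and adaptors, 1 was called higher and 1 lower (33.3%, beside 40.7% of all genes), and both changes were small. *Tlr3* (chr8:45395665-45411080, minus strand), the endosomal receptor for double-stranded RNA, had normalised counts of 164, 175, 178, 168 and 181 in the control libraries and 207, 197, 221, 216 and 195 in the knockdown libraries. Every knockdown library was above every control library, and the log2 fold change was 0.26 (SE 0.080, adjusted p = 0.00622). *Tlr3* was called in 11 of the 19 ways in which the data were fitted. It lost its call with DESeq2, with no filter on low counts, with offsets for transcript length and GC content, and without control replicate 1 or 4 or knockdown replicate 1, 3 or 4 (log2 fold change 0.24 to 0.26, adjusted p = 0.011 to 0.0185, when a library was left out). *Mavs*, which encodes the mitochondrial adaptor that RIG-I and MDA5 signal through, had 1417, 1442, 1355, 1336 and 1430.4 normalised counts in the control and 1203, 1262, 1328, 1237 and 1242 in the knockdown line. All 5 knockdown libraries were below the control libraries, by −0.16 on the log2 scale (SE 0.036, adjusted p = 3.14e-04).

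The cytoplasmic sensors themselves were not called. *Ddx58*, which encodes RIG-I, had 34.2 to 70.4 normalised counts in the control libraries and 53.5 to 61.8 in the knockdown libraries, and the log2 fold change was 0.08 with a 95% interval from −0.22 to 0.38. *Ifih1*, which encodes MDA5, gave 0.11 (interval −0.12 to 0.33, adjusted p = 0.451), and *Dhx58*, which encodes the related protein LGP2, gave −0.24 (−0.46 to −0.03, adjusted p = 0.0632). *Eif2ak2* encodes PKR, the kinase that stops translation when it binds double-stranded RNA. Its log2 fold change was 0.07 (SE 0.063, adjusted p = 0.406), and its interval ended at 0.19.

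Of the 9 receptors and transcription factors, *Stat2* and *Ifnar1* were called higher and *Ifngr2* lower (33.3%, beside 40.7% of all genes). *Stat2*, a transcription factor that signals from the type I receptor, had 997, 1083, 993, 1048 and 956 normalised counts in the control and 1242, 1310.0, 1297, 1247 and 1249 in the knockdown libraries. The lines did not overlap, and the log2 fold change was 0.32 (SE 0.038, adjusted p = 2.36e-09). *Ifnar1*, a chain of the type I interferon receptor, had 1079, 1153, 1150.4, 1054 and 1089 against 1309, 1385, 1244, 1287 and 1276, and the lowest knockdown library lay above the highest control library. It rose by 0.24 on the log2 scale (SE 0.038, adjusted p = 1.26e-06). *Ifnar2*, the other chain, had a log2 fold change of 0.14 and was not called (SE 0.054, adjusted p = 0.0261).

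*Ifngr2*, the signalling chain of the interferon gamma receptor, went the other way. Its normalised counts were 1590.2, 1598, 1633, 1550.2 and 1582 in the control and 1221, 1344, 1270.1, 1335 and 1274 in the knockdown libraries. The highest knockdown library was at 1344 and the lowest control library at 1550.2, and *Ifngr2* fell by 0.30 on the log2 scale (SE 0.034, adjusted p = 6.66e-10). *Ifnar2* (chr16:91372783-91405589), *Ifnar1* (chr16:91485238-91507441) and *Ifngr2* (chr16:91547072-91565623) are neighbours on the plus strand of chromosome 16 of GRCm38. *Ifngr1*, which encodes the ligand-binding chain of the gamma receptor, gave −0.10 and was not called (SE 0.045, adjusted p = 0.0586).

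None of the interferon regulatory factors among the members was called. *Irf3*, which the sensors activate without new transcription, had a log2 fold change of 0.01 with an interval from −0.06 to 0.09. *Irf9*, which gives the STAT complex its DNA binding, gave −0.07 (interval −0.25 to 0.11). *Irf7*, itself an interferon-induced gene, was at 118 to 163 normalised counts in the control and 134 to 208 in the knockdown libraries (log2 fold change 0.26, SE 0.106, adjusted p = 0.0372). *Irf1*, a factor induced by interferon gamma, gave −0.13 (SE 0.054, adjusted p = 0.035).

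The interferon-induced genes moved in both directions. Of 23 listed, 18 were tested and 9 called, 7 higher (*Usp18*, *Isg15*, *Parp14*, *Oas2*, *Dtx3l*, *Trim25* and *Adar*) and 2 lower (*Isg20* and *Bst2*). The share called was 50%, beside 40.7% of all genes, and the median log2 fold change of the 18 was 0.12. Of the 9 called genes 77.8% were higher, against 50.7% of all called genes. The larger rises were of genes with few counts, 16 to 72 normalised counts in the control libraries.

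ISG15 is a ubiquitin-like protein that is joined to other proteins after interferon, and *Isg15* had 51.3, 56.2, 72.1, 54.5 and 48.1 normalised counts in the control libraries and 77.2, 118, 90.4, 103.3 and 90.9 in the knockdown libraries. The highest control library, replicate 3, was below the lowest knockdown library, replicate 1. *Isg15* rose 1.71-fold, or 0.77 on the log2 scale (SE 0.136, adjusted p = 6.92e-06). *Usp18* encodes the protease that takes ISG15 off proteins and also damps signalling from the type I receptor. It had 26.2, 29.7, 22.01, 17.8 and 16.03 normalised counts in the control and 41.3, 53.5, 33.0, 54.0 and 48.2 in the knockdown libraries, again with no overlap. With a fold of 2.07 (log2 1.05, interval 0.65 to 1.45, adjusted p = 3.23e-05), it was the largest change on the log2 scale among the 42 tested members.

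*Parp14*, *Dtx3l* and *Parp9* lie beside each other on chromosome 16, at chr16:35832874-35871544, chr16:35926511-35939151 and chr16:35938470-35972605. The products of *Dtx3l*, a ubiquitin ligase, and *Parp9*, an ADP-ribosyltransferase family member, act as a pair. *Parp14*, another member of that family, had 50.3, 44.5, 42.8, 43.2 and 40.5 normalised counts in the control and 85.4, 79.2, 73.4, 73.0 and 64.5 in the knockdown libraries. No library overlapped, and *Parp14* rose 1.69-fold (log2 0.76, SE 0.140, adjusted p = 1.57e-05). *Dtx3l* had 449, 439.8, 494, 426 and 464 against 619, 585, 575, 603 and 578 normalised counts, with a gap between the lines. Its log2 fold change was 0.38 (SE 0.052, adjusted p = 4.54e-08), while that of *Parp9* was −0.15 and not called (SE 0.073, adjusted p = 0.0898). The ends of *Dtx3l* and *Parp9* share 458 exon bases on opposite strands, and the strand setting of the counting is not given in the sources used here.

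*Oas2*, an oligoadenylate synthetase that is activated by double-stranded RNA, had 65.4, 67.8, 72.1, 69.5 and 82.0 normalised counts in the control and 121, 79.2, 84.0, 96.6 and 102.7 in the knockdown libraries. Control replicate 5 reached above knockdown replicate 2, and *Oas2* rose by 0.44 on the log2 scale (SE 0.125, adjusted p = 0.00281). Without knockdown replicate 1, its highest library, the value was 0.35 and no longer called (adjusted p = 0.0233). *Trim25*, a ubiquitin ligase that acts on RIG-I, and *Adar*, which edits double-stranded RNA, were among the more abundant members, at 21.4 and 16.02 RPKM in the control line. They gave log2 fold changes of 0.15 (SE 0.030, adjusted p = 8.81e-05, no overlap, and 0.097 with offsets for transcript length and GC content) and 0.10 (SE 0.031, adjusted p = 0.00777, with overlap). *Adar* was called in 10 of those 19 fits. It lost its call with DESeq2, with the offsets (0.065), without robust estimation, and without control replicate 3, 4 or 5 or knockdown replicate 1, 2 or 3 (0.078 to 0.102, adjusted p = 0.0115 to 0.0384, when a library was left out).

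*Isg20*, an interferon-induced RNA exonuclease, fell with a narrow spread between libraries. Its normalised counts were 2401, 2356, 2498, 2472 and 2451 in the control and 1833, 1762, 1841, 1912 and 1832 in the knockdown libraries. All knockdown libraries were below all control libraries, by −0.41 on the log2 scale (SE 0.031, adjusted p = 1.47e-14). *Isg20* and *Oasl2* were the 2 members of 38 (5.3%) with the G-box letters GACGTG in the promoter window, against 7.2% of 27025 genes. The stretch of *Isg20* is shown because the study examined a G-box in another promoter as a site for Creb3l1, with the G-box letters of either strand in capitals.
*Isg20*, chr7:78913721-78913785, plus strand: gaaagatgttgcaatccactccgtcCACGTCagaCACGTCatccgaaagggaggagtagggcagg
The matches lie between 19 and 5 bases before a start that RefSeq gives. That start lies inside the gene as annotated (chr7:78913424-78920396), so the stretch is downstream of the annotated start of the gene.

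*Bst2* encodes tetherin, which holds budding enveloped virus at the cell surface. It had 137, 150.5, 155, 157 and 148 normalised counts in the control and 79.9, 118, 108.5, 119 and 81.8 in the knockdown libraries. Knockdown replicates 1 and 5 were the lowest, the others lay between them and the control libraries, and no library overlapped. *Bst2* fell by 0.57 on the log2 scale (SE 0.108, adjusted p = 2.73e-05).

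The other 9 tested interferon-induced genes were not called. *Rsad2*, which encodes the antiviral enzyme viperin, was at 19.1 to 33.0 normalised counts in the control and 31.8 to 48.9 in the knockdown libraries. The log2 fold change was 0.58, with an interval from 0.19 to 0.96 (adjusted p = 0.0139). *Oas1a* gave 0.30 (adjusted p = 0.104), *Oasl1* −0.24 (adjusted p = 0.366) and *Oasl2* 0.17 (adjusted p = 0.691), all from fewer than 100 counts a library. *Mx2*, annotated as a polymorphic pseudogene in this assembly, gave −0.61 with an interval from −1.22 to 0.01. The abundant *Ifitm2* gave 0.02 (interval −0.04 to 0.09), and *Ifi27* and *Ifi35* gave −0.08 and −0.07. Reads of *Ifitm2* may also have been split by the counting, since *Gm45717* covers 40.9% of its exon bases on the same strand, and the *Oas* and *Ifitm* genes have near-identical copies.

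The 5 listed interferon-induced genes that were not tested, *Ifit1*, *Ifit2*, *Ifit3*, *Ifitm3* and *Mx1*, had few counts or none in both lines. *Ifit3* had no count in any library. *Ifit1* had no count in any control library and 2, 0, 1, 2 and 0 raw counts in the knockdown libraries, while *Ifit2* had 0 to 1 and 0 to 2 raw counts. A count of 0 allows up to 3 counts, or 0.135 to 0.172 CPM across the libraries, and covers counting error only. *Ifitm3* had 1 to 3 raw counts in the control and 1 to 4 in the knockdown libraries. *Mx1*, a GTPase gene that blocks influenza virus, had 6, 14, 14, 11 and 19 raw counts in the control and 2, 5, 9, 10 and 3 in the knockdown libraries. It did not pass the filter on low counts, its libraries overlapped, and no test was made. The promoter of *Ifit1* is shown because it holds ISRE letters (in capitals) 2 times although the gene was barely counted.
*Ifit1*, chr19:34640760-34640838, plus strand: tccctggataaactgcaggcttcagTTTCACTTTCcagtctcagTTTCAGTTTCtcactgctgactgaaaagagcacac

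The class I presentation genes were called in both directions. Of 9 tested, 7 were called (77.8%, beside 40.7% of all genes). By mean count, *H2-K1*, *H2-D1* and *B2m* lie in the highest quartile, where 56% of all genes were called. *Tapbp* lies in the next quartile (47.4% called) and *Tap2* in the one below (38.2%). *Tap1*, *Psmb8*, *Psmb9* and *Psmb10* lie in the lowest quartile, where 21.2% were called. The heavy chains *H2-K1* and *H2-D1*, their light chain *B2m* and the loading factor *Tapbp* were lower in the knockdown line. The peptide transporter genes *Tap1* and *Tap2* and the immunoproteasome subunit *Psmb8* were higher. *Nlrc5*, the activator of class I transcription, had 0 to 2 raw counts in the control and 0 to 3 in the knockdown libraries and was not tested.

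*Tapbp* (chr17:33915899-33929292, plus strand) encodes tapasin, which bridges TAP to empty class I molecules, and it showed the largest fall among the 42 tested members. Its normalised counts were 1149, 1153, 1165, 1064 and 1084 in the control and 556, 643, 559.5, 578 and 579 in the knockdown libraries. The highest knockdown library, replicate 2, was far below the lowest control library, and the level in the knockdown line was 0.519 of that in the control line (log2 −0.95, interval −1.03 to −0.86, adjusted p = 2.81e-21). Of the exon bases of *Tapbp*, 24.9% are shared with *Gm19412* on the opposite strand. *Gm19412* had a mean of 24.1 counts and a log2 fold change of −0.81 (adjusted p = 0.00214), and *Zbtb22*, which shares 4.1% on the same strand, gave −0.05 (adjusted p = 0.425).

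*H2-K1*, which encodes a classical class I heavy chain, had 8996, 9045, 9013, 9512 and 8959 normalised counts in the control and 6194, 6733, 6450.5, 6671 and 6379 in the knockdown libraries. The lines did not overlap, and *H2-K1* fell by 0.49 on the log2 scale (SE 0.026, adjusted p = 1.40e-19). *H2-D1*, the other classical heavy chain measured, had 6075, 6254, 6135, 6046 and 5906 against 5106, 5309.6, 5346, 5239 and 5129. It also fell with no overlap, by 0.22 (SE 0.026, adjusted p = 1.75e-09), and by 0.13 where offsets for transcript length and GC content were used. The class I genes of mouse are close copies of each other, and the counting could have split their reads.

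*B2m*, which encodes beta-2 microglobulin, the light chain of all class I molecules, had 1930.2, 1948, 1959, 2008 and 1833 normalised counts in the control and 1584, 1564, 1506, 1539 and 1713 in the knockdown libraries. Knockdown replicate 5 came nearest to the control libraries without reaching them. *B2m* fell by 0.29 on the log2 scale (SE 0.034, adjusted p = 2.08e-09).

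*Tap1* (chr17:34187553-34197225) and *Tap2* (chr17:34203527-34216321) encode the chains of the transporter that moves peptides into the endoplasmic reticulum, and *Psmb8* (chr17:34197721-34201454) lies between them. *Tap1* had 61.4, 54.0, 58.7, 77.9 and 56.6 normalised counts in the control and 100.1, 127, 91.5, 104.2 and 103.6 in the knockdown libraries. The lines did not overlap, and *Tap1* rose 1.70-fold (log2 0.76, SE 0.126, adjusted p = 2.26e-06). *Tap2* had 462, 434, 533, 462 and 455 against 595, 625, 540.4, 517 and 521, with control replicate 3 inside the range of the knockdown libraries. It rose by 0.26 on the log2 scale (SE 0.059, adjusted p = 3.76e-04). On the RPKM scale the 2 chains were unequal in both lines, *Tap1* at 0.556 ± 0.085 and *Tap2* at 6.12 ± 0.487 in the control (SD, n = 5).

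*Psmb8* had 53.3, 65.7, 84.4, 63.9 and 57.5 normalised counts in the control and 107.5, 94.2, 89.4, 99.5 and 79.1 in the knockdown libraries. Control replicate 3 lay above knockdown replicate 5, and the log2 fold change was 0.54 (SE 0.130, adjusted p = 5.06e-04). The other immunoproteasome subunits were not called, *Psmb9* at 0.52 (interval 0.03 to 1.01, adjusted p = 0.0826) and *Psmb10* at 0.23 (interval −0.13 to 0.60, adjusted p = 0.312). *Psmb9* (chr17:34181987-34187764) and *Tap1* share 212 exon bases on opposite strands. *Psmb8* shares 14.7% of its exon bases with *Gm20496*, and *Tap2* 14.1% with *Gm15821*, again on the opposite strand.

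The immunoproteasome subunits take the place of constitutive ones, which were far more abundant here. *Psmb8* was at 0.947 ± 0.174 RPKM in the control and 1.37 ± 0.156 in the knockdown line, where its counterpart *Psmb5* was at 68.6 ± 2.79 and 63.8 ± 2.15 (SD, n = 5). The level of *Psmb8* was thus 1.18% to 1.72% of that of *Psmb5* in the control libraries and 1.74% to 2.55% in the knockdown libraries, without overlap. *Psmb9* was at 0.245 and 0.351 RPKM beside *Psmb6* at 67.3 and 67.2, and *Psmb10* at 1.08 and 1.26 beside *Psmb7* at 62.3 and 55.4. Of the constitutive counterparts, *Psmb7* was called lower (log2 fold change −0.17, adjusted p = 3.38e-06), while *Psmb5* (−0.10, adjusted p = 0.0194) and *Psmb6* (−0.002, adjusted p = 0.953) were not called.

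**Figure D3:**
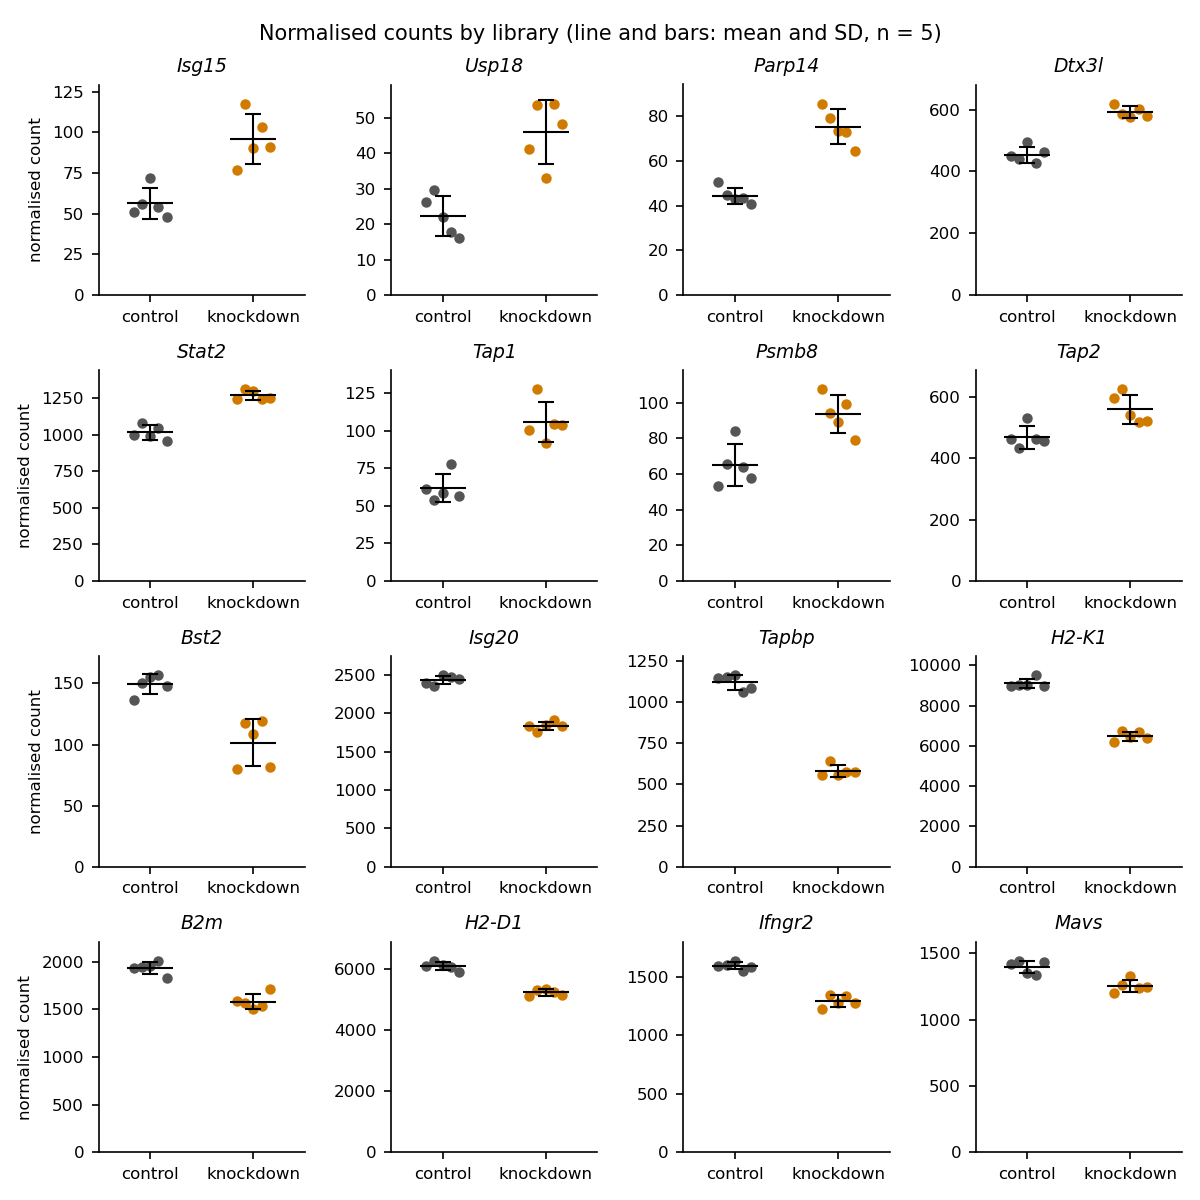
Normalised counts of 16 members in each library (points), with the mean and SD of the 5 libraries of each line as black lines, each panel on its own axis from 0. *Tapbp*, *H2-K1*, *B2m* and *H2-D1* are lower in every knockdown library, *Isg15*, *Usp18*, *Parp14* and *Tap1* are higher in every one, and for *Psmb8* and *Tap2* control replicate 3 overlaps the knockdown libraries.

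Among members with a promoter window, called genes with and without ISRE letters went in both directions. The 10 members without a window could not be scored, among them *Usp18*, *Oas2*, *Parp14* and *Tap2*, which were called higher. ISRE letters were in the windows of 13 of 38 members (34.2%), against 1079 of 27025 genes (4.0%), which describes a list made of interferon genes. Of the 10 such members that were tested, 2 were called higher (*Stat2* and *Isg15*), 2 lower (*Bst2* and *B2m*), and 6 were not called (*Ddx58*, *Ifih1*, *Eif2ak2*, *Oas1a*, *Rsad2* and *Ifitm2*). The other 13 of the 17 called members with a window had no such letters, *Tap1*, *Psmb8*, *Tapbp*, *H2-K1* and *H2-D1* among them. The letters TTCNNNGAA, the core of the interferon gamma-activated site (GAS), were in 12 members (31.6%) and 9.6% of all genes. Both strands were searched, and no match says only that the letters were not in the window.

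The wider pathway was described with 113 further genes in 8 lists, of which 75 were tested and 34 called (45.3%, near the 40.7% of all genes), 23 higher and 11 lower. Their median log2 fold change was 0.02. The 10 interferon ligand genes were not tested: 7 of them, *Ifnb1*, *Ifna1*, *Ifna2*, *Ifna4*, *Ifna5*, *Ifne* and *Ifnk*, had no count in any library, and *Ifng*, *Ifnl2* and *Ifnl3* had at most 2 raw counts in a library.

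Of the 11 JAK-STAT genes, 3 were called (27.3%, beside 40.7% of all genes). *Jak2*, a kinase of the gamma receptor, had 516 to 561 normalised counts in the control and 599 to 687 in the knockdown libraries. It rose with no overlap, by 0.26 on the log2 scale (adjusted p = 1.66e-05), and *Socs3*, an inhibitor of JAK kinases, gave −0.37 (adjusted p = 2.74e-05) and fell. The kinases of the type I receptor were not called, *Jak1* at 0.06 (adjusted p = 0.0959) and *Tyk2* at 0.08 (adjusted p = 0.192), nor was the inhibitor *Socs1* at 0.02 (interval −0.54 to 0.58).

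The DNA sensing genes *Cgas* and *Sting1* were called in opposite directions. *Cgas*, which encodes the sensor of cytoplasmic DNA, had 52.3, 67.8, 46.5, 59.2 and 53.7 normalised counts in the control and 82.7, 84.6, 92.5, 87.2 and 98.1 in the knockdown libraries. All knockdown libraries were higher, and the log2 fold change was 0.67 (SE 0.129, adjusted p = 3.17e-05). *Sting1*, its downstream adaptor, had 348, 306, 312, 349 and 329 against 248, 291, 248, 242 and 249. It fell without overlap, by 0.37 on the log2 scale (SE 0.071, adjusted p = 3.01e-05). Of the 12 tested genes of this list 5 were called (41.7%, beside 40.7% of all genes). Among them was the Toll-like receptor adaptor *Myd88*, which was higher (0.23, adjusted p = 0.00666). Of 5 tested interferon regulatory factor genes and partners, 3 were called (60%, beside 40.7% of all genes), 2 higher and 1 lower. Those higher were *Irf2bp2* (0.33) and *Irf2bp1* (0.18), which encode partners of IRF2. Genes on the opposite strand share 11.3% of the exon bases of *Myd88* and 20.5% of those of *Irf2bp2*.

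Of 42 other interferon-induced genes, 23 were tested and 10 called (43.5%, beside 40.7% of all genes), 6 higher and 4 lower. *Uba7*, which encodes the enzyme that activates ISG15 for its transfer, had 17.1, 9.54, 8.56, 16.9 and 16.03 normalised counts in the control and 45.9, 31.0, 46.8, 42.6 and 35.4 in the knockdown libraries. It rose 2.89-fold with no overlap (log2 1.53, SE 0.227, adjusted p = 3.12e-07). *Lgals3bp*, which encodes a secreted galectin-binding glycoprotein, was far more abundant, with 1111 to 1180.3 normalised counts in the control and 2292 to 2391 in the knockdown libraries. Its rise was 2.05-fold (log2 1.03, SE 0.031, adjusted p = 1.03e-27). *Ifitm1*, a membrane protein gene of the same family as *Ifitm2*, had 0.939 to 12.2 normalised counts in the control and 10.9 to 24.8 in the knockdown libraries. It rose with overlap of the lines (log2 1.30, SE 0.376, adjusted p = 0.0036).

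*Lgals9*, which encodes galectin-9, was uneven among the knockdown libraries. It had 40.2, 39.2, 35.5, 38.5 and 39.6 normalised counts in the control and 15.6, 15.0, 34.0, 36.0 and 13.6 in the knockdown libraries. Knockdown replicates 3 and 4 were near the control libraries and the other 3 were well below them, and the log2 fold change was −0.76 (SE 0.228, adjusted p = 0.00484).

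In class I loading, 6 of 12 tested genes were called (50%, beside 40.7% of all genes). The non-classical class I genes *H2-T23* and *H2-Q4* rose by 0.53 (SE 0.038, adjusted p = 1.82e-15) and 0.57 (SE 0.110, adjusted p = 3.17e-05) on the log2 scale, where the classical *H2-K1* and *H2-D1* fell. *H2-T23* had 933 to 1067 normalised counts in the control and 1375 to 1497 in the knockdown libraries. *Calr*, the chaperone calreticulin of the loading complex, rose by 0.24 (adjusted p = 3.95e-13), and *Rfxank*, a subunit of the RFX complex that binds class I and class II promoters, was lower, at −0.33 (adjusted p = 7.50e-06). Genes on the opposite strand share 33.8% of the exon bases of *Rfxank* and 19.1% of those of *H2-Q4*. The MHC class II markers had few counts, with *H2-Aa* at 0 in all libraries. *Cd74* had 8.48 to 27.3 normalised counts in the control and 0 to 5.51 in the knockdown libraries. *Ciita* had 3.18 to 7.54 and 1.06 to 2.84, and neither gene overlapped between the lines. The summed RPKM of the 5 class II markers, in the mean of each line largely that of *Cd74*, was 0.292 to 0.866 in the control and 0.0111 to 0.195 in the knockdown libraries. None of the 5 passed the filter on low counts.

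Of the 9 listed genes that process small RNAs and hairpins, 6 were called (66.7%, beside 40.7% of all genes), 5 higher and 1 lower. *Ago2*, the argonaute that cuts targets, had 8122, 8016, 7749, 7247 and 8111 normalised counts in the control and 9430.3, 9699, 9129, 8458 and 9325 in the knockdown libraries. It rose by 0.23 on the log2 scale with no overlap (SE 0.037, adjusted p = 4.93e-05). *Ago4* rose by 0.51 (adjusted p = 2.30e-04) and *Tarbp2*, a partner of Dicer, by 0.21 (adjusted p = 0.00217), while *Xpo5*, which exports hairpins from the nucleus, was lower, at −0.11 (adjusted p = 0.00214). *Dicer1* gave 0.02 (interval −0.04 to 0.08) and was not called. The amount of either hairpin RNA in the cells was not measured, and its part in these differences was not tested.

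**Figure D4:**
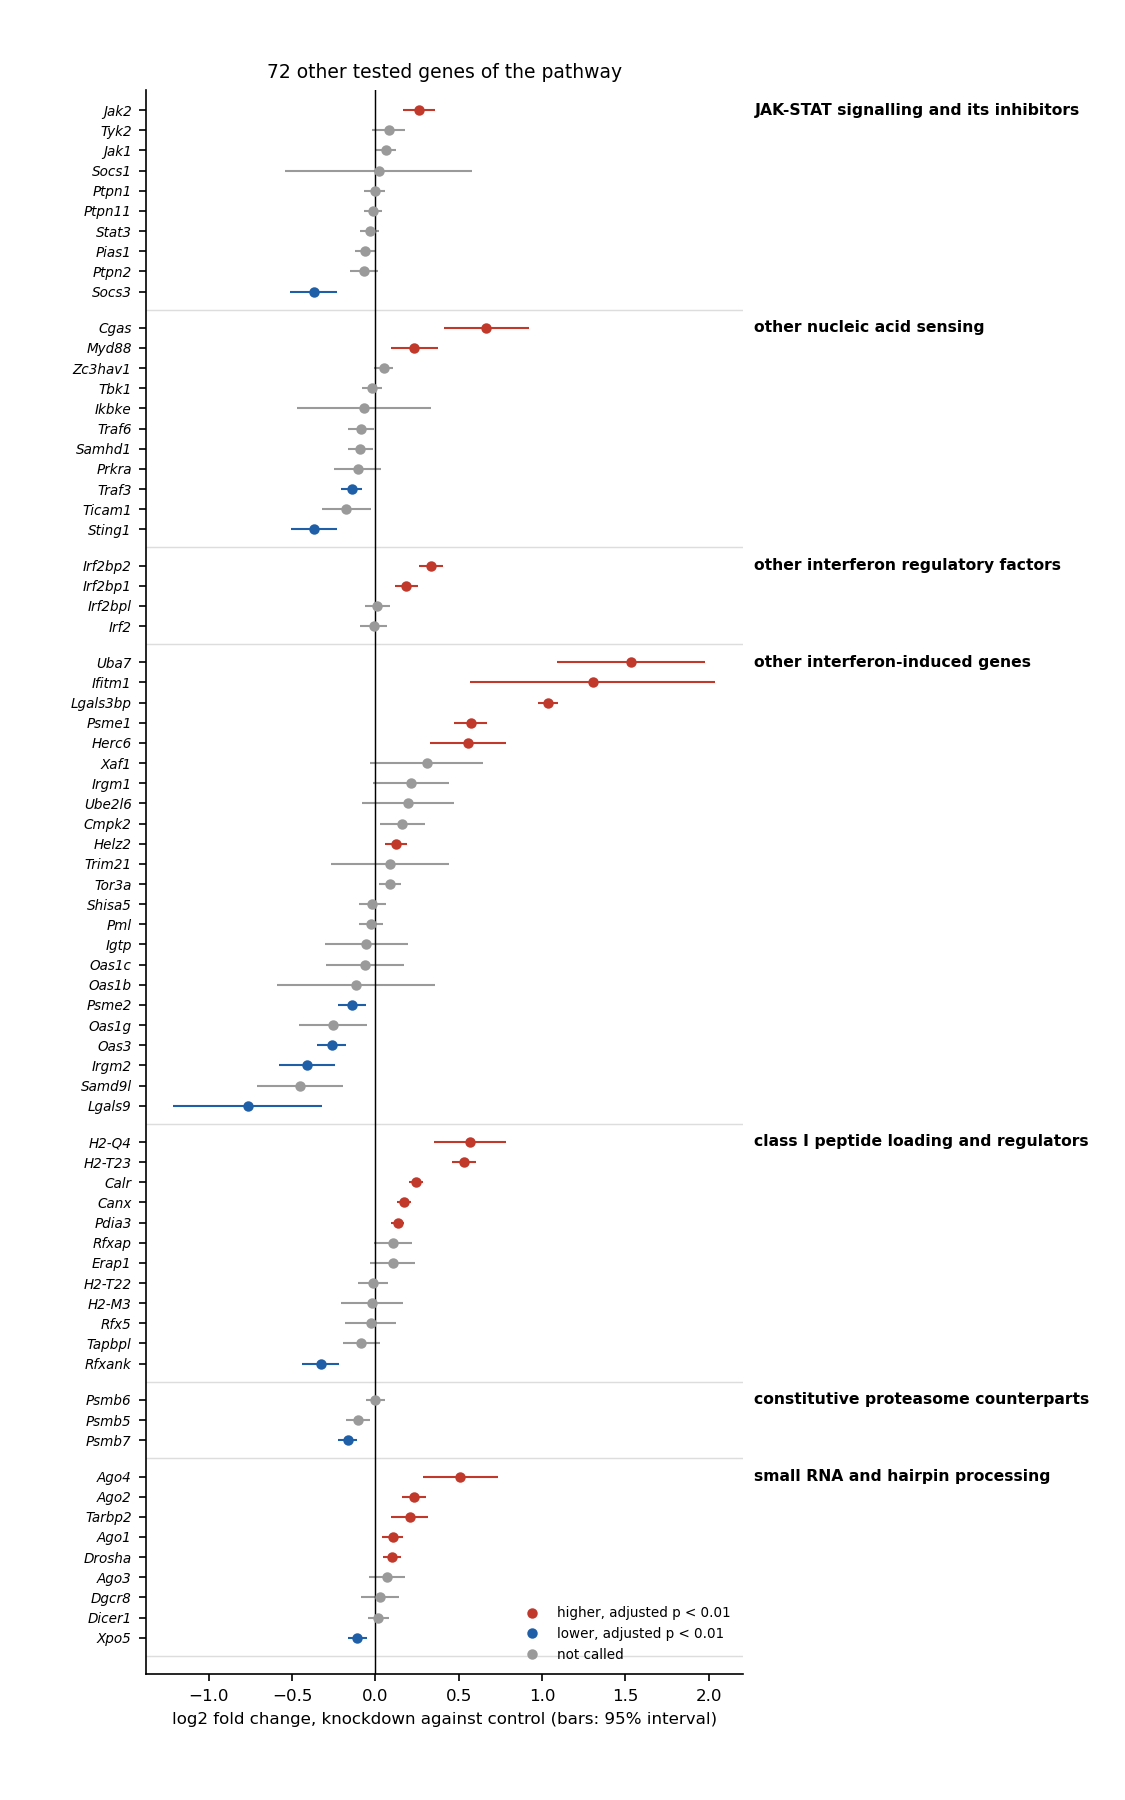
Log2 fold change of 72 of the 75 other tested genes of the pathway, knockdown against control, with 95% intervals as bars, grouped by list (x axis, log2 scale). Red points are called higher (21 genes), blue points called lower (10) and grey points not called (41), with *Uba7* at 1.53 and *Lgals9* at −0.76 as the extremes.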

How the data were processed

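RNA sequencing compared 5 libraries of a non-targeting shRNA line with 5 of a *Creb3l1*-shRNA1 line of AtT20 cells, grouped by the sample titles and genotype labels. The replicate numbers follow the order of the samples. The authors selected poly(A) RNA with a stranded kit, used STAR to align the paired reads (GRCm38) and featureCounts to count them per Ensembl gene, and they deposited these whole-number counts for each gene and library without normalisation. The strand setting of the counting is not given in the sources used here.

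From the counts, genes were kept by filterByExpr and tested in edgeR 4.0.16 (R 4.3.3) with TMM factors and the quasi-likelihood test with robust estimation and no covariate, over 14336 genes, with Benjamini-Hochberg adjustment and a threshold of 0.01. The F statistic and the log2 fold change gave the standard errors, and 95% intervals are 1.96 standard errors on each side. Depth was 17420698 to 22205107 counts a library, and low counts carry the larger errors. RPKM used exon lengths of a GENCODE annotation of GRCm38, through which 53620 of 53801 identifiers were paired with a symbol. Promoter windows are RefSeq's on GRCm38.p6, and those of chromosome 18 were left out of the motif counts. Python 3.11.15 was used for sequences and plots, and the test was checked on simulated counts.

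The members and the other gene lists were chosen with earlier results of these data known. All 48 members may be named, and of each other list up to 4 genes called with the largest absolute log2 fold change, besides the ligands and fixed genes of JAK-STAT signalling, DNA sensing, hairpin processing and the proteasome. Genes whose exons overlap a member were named with it, and a few genes of the lists are counted but not reported here by name. Robust estimation was chosen after the counts of calls with and without it had been seen, to follow the earlier processing, and the fit without it is among the alternatives. The others were DESeq2 1.42.0, RLE size factors, library totals, no filter, at least 10 counts in every library, offsets for transcript length and GC content, a block for the replicate number, omission of each library in turn, a threshold of 0.05, and a change of at least 1.5-fold. Libraries of a line with the same number did not deviate together (correlations of −0.065 to 0.040 between same-numbered libraries), so the numbers do not pair the lines. No library of a line was a copy of another, the 20 pairs differing by more than counting error (mean chi-square per gene of 1.84 or more).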

Additional observations from a re-analysis of the deposited data

Results flagged for a closer look

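In 84 groups of 5 libraries (42 tested members in each line), 3 had a library set apart from the other 4 by more than Dixon's value of 0.71 of the whole range, where chance gives about 1 in 20 groups, or 4.2. *H2-K1* in non-targeting shRNA replicate 4 had 9510 normalised counts (8960 to 9050 in the other 4). *Tap2* in non-targeting shRNA replicate 3 had 533 (434 to 462 in the other 4), and *Tapbp* in *Creb3l1* shRNA replicate 2 had 643 (556 to 579 in the other 4). All 3 genes were called with each of these libraries left out.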

How the results depend on the processing

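Of the 21 members called, 18 were called in all 19 fits, and the exceptions were *Tlr3* (11 fits), *Adar* (10) and *Oas2* (18). The number of members called was 18 to 23 with each library left out, lowest without *Creb3l1* shRNA replicate 1, and 19 to 22 in the other fits (19 with DESeq2). For the other pathway genes, 34 as reported, the ranges were 28 to 32 and 29 to 39, and for all genes, 5837 as reported, 5408 to 6026 and 5542 to 6146. Requiring at least 1.5-fold left 5 members, 5 other pathway genes and 1108 genes in all. An adjusted p under 0.05 gave 25 members, 39 other pathway genes and 7209 genes. The replicate block gave 21, 35 and 6013 calls. The fit without robust estimation gave 20, 33 and 5628, and the fit with it was chosen as the main one after the counts of calls had been seen.

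The sign turned for 3 members that were not called, *Ddx58* without non-targeting shRNA replicate 3 (−0.034, and up to 0.187 without replicate 1 of that line), and *Ifi35* (0.041) and *Ifi27* (0.043) with offsets for transcript length and GC content. *Oas2* lost its call without *Creb3l1* shRNA replicate 1 (0.35, adjusted p = 0.0233 in edgeR). *Ifitm2* (0.17, adjusted p = 1.35e-05), *Irf7* (0.32) and *Ifnar2* (0.17) gained a call with the offsets, *Irf7* also without *Creb3l1* shRNA replicate 5 (0.34), *Ifngr1* without non-targeting shRNA replicate 3 (−0.14), and *Rsad2* without non-targeting shRNA replicate 5 (0.69) or *Creb3l1* shRNA replicate 5 (0.65). The cause of these changes was not tested. The scalings moved the median of all genes by at most 0.02 on the log2 scale. Single members moved more in the other fits to all 10 libraries. The ranges were −0.409 to −0.276 for *Isg20*, −0.571 to −0.425 for *Bst2* and −0.158 to −0.104 for *Mavs*, and each was called in all 19 fits.

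Genes under about 120 counts a library were measured with a median standard error of 0.205 on the log2 scale, against 0.031 in the highest quartile by mean count. Cells without a hairpin and further lines of either hairpin were not analysed here.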
